A study of Mus musculus with 3 samples.

Results

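The 36 genes described here move, store or bind zinc and iron. They are 14 zinc importers (Slc39a1 to Slc39a14, the ZIP family), 10 zinc exporters (Slc30a1 to Slc30a10, the ZnT family), 9 genes of iron transport, storage and regulation, and 3 metallothioneins. They were chosen by gene symbol from the 28578 names on the array. Of the 36, 35 carry their symbol in the deposited files, and Tfr2 was found through its RefSeq accession because the files give it an older name, Trfr2. RNA of E14.1, a mouse line of embryonic stem (ES) cells, was hybridised to 1 one-colour Agilent array for each of 3 days. Day 0 was undifferentiated ES cells on gelatin, kept without serum (N2/B27) in LIF (1000 U/ml) and BMP4 (10 ng/ml). Day 5 was definitive endoderm, the germ layer that gives rise to liver and gut, grown on collagen IV with activin A (30 ng/ml). Day 7 was early hepatic cells, given activin A (30 ng/ml), BMP4 (30 ng/ml) and basic FGF (10 ng/ml) for 2 more days. The groups therefore differ in culture time, added factors and growth surface together, and these cannot be told apart. Only 1 cell line was used, with no replicate of any day, so every difference below is between single arrays and has no test. In RNA from a whole culture, fewer cells of a type and less RNA per cell cannot be told apart.

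ZIP proteins carry zinc into the cytosol, from outside the cell or from organelles, and ZnT proteins carry it out of the cytosol, to the outside or into organelles. Metallothioneins are small cysteine-rich proteins that hold zinc and copper, and their genes are classical targets of the zinc sensor Mtf1. Most cells take up iron bound to transferrin through the transferrin receptor, store it in ferritin and release it through ferroportin, which hepcidin, a hormone made mainly by the liver, removes from the cell surface.

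Mtf1 binds metal response elements, whose core is TGCACNC or TGCGCNC. In the 250 bases before the start of each gene (RefSeq table, GRCm38.p6), this core was searched on both strands, and overlapping matches were each counted. The windows of 3 members known for their response to zinc are shown, all on the + strand and 5′ to 3′, with each match in capitals: Mt1 at chr8:94178839-94179088, Mt2 at chr8:94172368-94172617 and the exporter Slc30a1 at chr1:191906531-191906780.
Mt1: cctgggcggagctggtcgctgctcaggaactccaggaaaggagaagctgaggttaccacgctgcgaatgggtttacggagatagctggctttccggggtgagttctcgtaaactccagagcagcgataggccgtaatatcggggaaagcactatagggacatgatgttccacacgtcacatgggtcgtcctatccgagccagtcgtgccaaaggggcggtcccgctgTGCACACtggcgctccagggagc
Mt2: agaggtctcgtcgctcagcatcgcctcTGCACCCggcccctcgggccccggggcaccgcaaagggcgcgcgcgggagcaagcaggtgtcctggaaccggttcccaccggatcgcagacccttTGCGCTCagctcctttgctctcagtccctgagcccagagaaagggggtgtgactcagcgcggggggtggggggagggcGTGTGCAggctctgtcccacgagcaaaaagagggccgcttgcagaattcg
Slc30a1: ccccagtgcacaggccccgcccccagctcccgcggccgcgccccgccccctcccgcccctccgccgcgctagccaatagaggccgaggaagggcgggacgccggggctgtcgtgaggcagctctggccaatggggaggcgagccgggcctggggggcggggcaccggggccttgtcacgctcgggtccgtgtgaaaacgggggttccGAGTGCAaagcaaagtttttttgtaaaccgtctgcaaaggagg
Mt1 held 1 match, 23 to 17 bases before the start given in that table. Such a start need not be the main site where transcription begins, and bases after it were not searched. The matches shown are therefore not a full count for any of these promoters. Mt2 held 3, the nearest of them on the other strand at 50 to 44 bases before the start. Slc30a1 held 1, on the other strand at 43 to 37 bases before the start. Of the members, 30 had a window in the table (39 windows), and 13 of the 30 held at least 1 match: Mt1, Mt2, Slc30a1, Slc30a2, Slc30a3, Slc30a4, Slc30a5, Slc30a10, Slc39a3, Slc39a5, Slc39a8, Slc39a11 and Tfrc. The most matches in a window were 3 for Mt2 and Slc30a10, 2 for Slc30a2, Slc30a4 and Tfrc, and 1 for the rest. The core was found in 21.4% of all 32851 windows, and at least 3 matches in 1.26%. These shares are per window, while a member counted when any of its windows held a match. The member count and these shares are therefore not directly comparable. The forkhead core TGTTTAC, searched because the series was built around the forkhead factor Foxa2, was in 3.17% of all windows and in those of 0 of the 30 members. A match is a run of letters and not a shown binding site, and no match says only that these letters are not in this window.

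Values below are normalised log2 signals, that is the log2 processed intensity minus the array's 75th percentile, so that 0 is that percentile, and differences are log2 differences between arrays. Of 43379 gene spots per array, 70.9% to 71.7% were well above background. Levels of different genes are not compared, since probes differ in brightness. Of the 36 members, 31 were well above background on all arrays, Slc30a10 and Hamp only on day 0, and Slc39a12, Slc30a3 and Slc30a8 on no array. A gene counts as higher or lower when its difference was at least 2-fold and the brighter array was well above background. Where the probe was at background level on the dimmer array, the fold is a lower bound, taken against the lowest signal well above background on that array or, where higher, the probe's own signal, and is written "at least". The only error that could be measured is the spread of spots of 1 probe on 1 array, with a median SD of 0.079 on day 0, 0.074 on day 5 and 0.073 on day 7 over 149 probes printed as 10 spots. It leaves out the spread between cultures. The plot of all members by day shows how far apart the arrays lay for each gene.

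**Figure D1:**
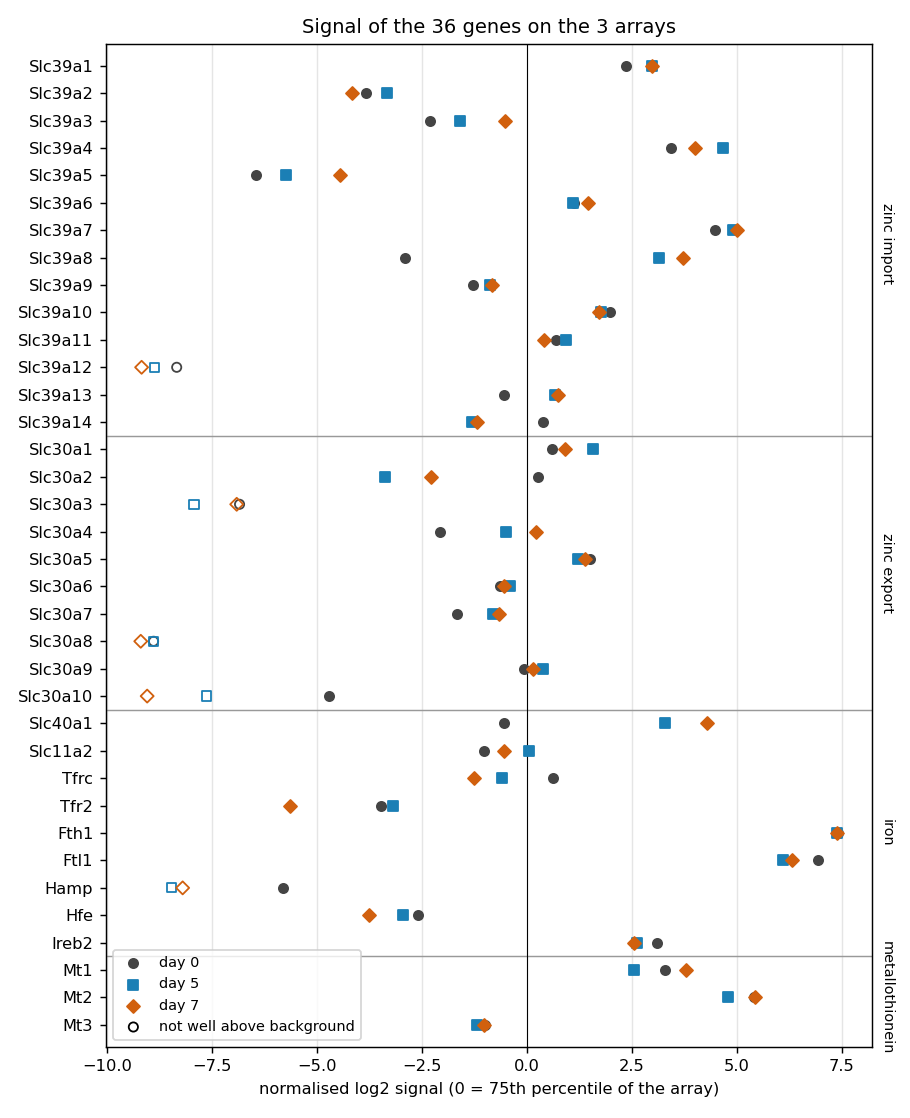
Normalised log2 signal (horizontal axis, 0 is the array's 75th percentile) of the 36 genes on the arrays of day 0 (circles), day 5 (squares) and day 7 (diamonds), 1 array per day. Open symbols mark values not well above background. Slc39a8 and Slc40a1 lie far to the right on days 5 and 7, Slc30a2 lies to the left of its day 0 value on both, and the symbols of Fth1 fall on each other.

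Between day 0 and day 5, 6 of the 33 members measured on at least 1 array were at least 2-fold higher on day 5 (18.2%, against 16.4% of all 21653 genes tested), and 4 were lower (12.1%, against 16.1%). On day 7, 7 members were higher than on day 0 and 7 were lower (21.2% each, against 16.2% and 19.1% of all genes). Between day 5 and day 7, 5 members were higher on day 7 (15.2%, against 5.97% of all genes) and 1 was lower (3.03%, against 8.38%). The list as a whole thus lay near the array's background in the comparisons with day 0. The last comparison had a larger share of higher members, but of 5 genes only, and 3 of them remained higher with the refitted normexp correction (normexp models signal over local background). Of the 33 members, 16 differed 2-fold in no comparison (48.5%, against 55.9% of all genes). Both comparisons with day 0 use the same day 0 array, and each array enters 2 comparisons. The median difference of the 31 members measured on all arrays was 0.28, 0.20 and 0.07 in the 3 comparisons, beside -0.13, -0.20 and -0.09 for all genes measured on both arrays. Scaling to the array median in place of the 75th percentile moved the median of all genes to -0.24, -0.16 and 0.06, and the authors' value table put it at -0.07, -0.08 and -0.03.

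**Figure D2:**
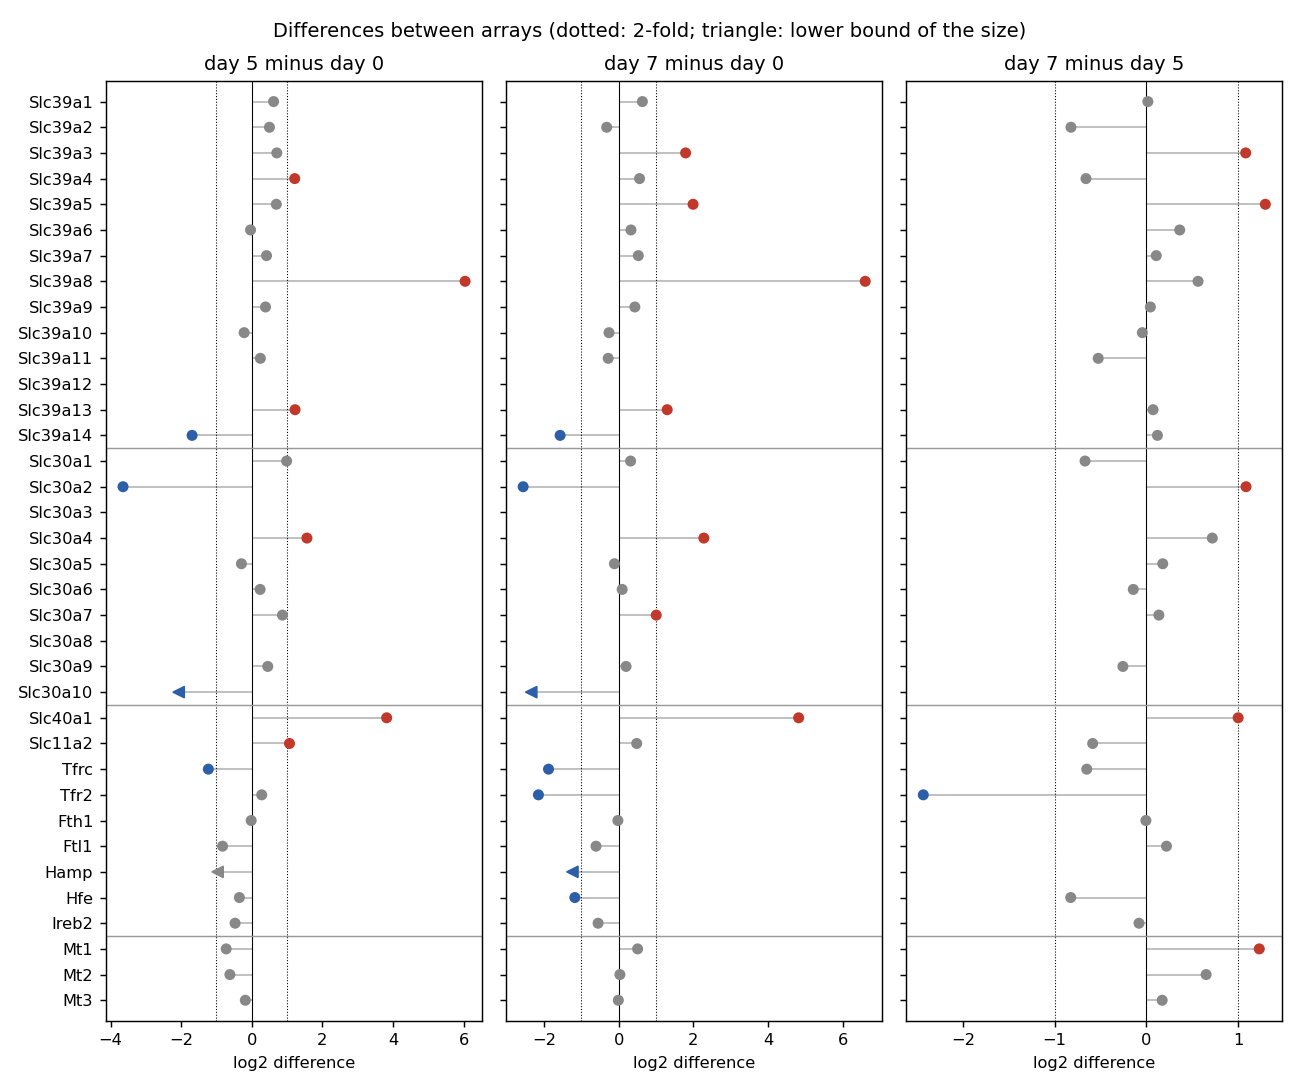
Log2 differences (horizontal axes, each panel with its own range) of the members in day 5 minus day 0, day 7 minus day 0 and day 7 minus day 5. Red and blue points are at least 2-fold higher or lower, grey points are not, triangles are lower bounds of the size, dotted lines mark 2-fold, and genes with no point were not well above background on either array. Slc39a8 at 6.04 and 6.60 and Slc40a1 at 3.82 and 4.82 stand furthest to the right in the panels against day 0.

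Among the zinc importers, 3 of 13 measured members were higher on day 5 than on day 0 (23.1%, against 16.4% of all genes). Only 1 was lower (7.69%, against 16.1%). On day 7, 4 were higher than on day 0 (30.8%, against 16.2%) and 1 lower (7.69%, against 19.1%). Against day 5, 2 were higher (15.4%, against 5.97%) and 0 lower (against 8.38%). With so few genes per group, here and below, 1 gene moves such shares widely. The group's median difference was 0.50, 0.53 and 0.07.

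Slc39a8 (ZIP8), a transporter of the cell surface that carries zinc, manganese and iron, differed most of all members. Its signal was -2.89 at the start, 3.15 in definitive endoderm and 3.71 in early hepatic cells (probe at chr3:135551169-135551228, mm9). Days 5 and 7 were 65.8-fold and 97.2-fold higher than day 0, and 1.48-fold apart from each other. Its other 2 probes, dim on day 0, gave lower bounds, of 34.6-fold and 51.6-fold for 1 probe and of 2.07-fold and 2.77-fold for the other. All of its probes therefore placed days 5 and 7 above day 0, while the size of the difference was not the same. The median over the probes was 5.11 and 5.69 on the log2 scale, and normexp as planned, fitted with a few spots dimmer than their local background, gave 3.65 and 4.09.

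Slc39a14 (ZIP14), the closest relative of Slc39a8 and likewise a carrier of zinc, manganese and iron, went the other way. Its signal was 0.39 in ES cells, -1.30 in definitive endoderm and -1.18 in early hepatic cells (chr14:70703405-70703464). It was thus 3.23-fold lower on day 5 and 2.97-fold lower on day 7, and its second probe was 5.23-fold and 4.94-fold lower. The arrays of days 5 and 7 differed by 0.12.

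Slc39a4, the zinc importer of the intestinal surface whose loss causes acrodermatitis enteropathica, had signals of 3.45, 4.66 and 4.01 on days 0, 5 and 7. It was 2.32-fold higher on day 5 and 1.47-fold higher on day 7 than on day 0, so that the day 5 array was the highest. Slc39a13, an importer of the early secretory pathway needed in connective tissue, had -0.55, 0.67 and 0.75. Days 5 and 7 lay 2.34-fold and 2.46-fold above day 0, and 1.71-fold and 1.92-fold above it by the second probe. With the median over its probes the day 5 difference was just under 2-fold, and with normexp as planned both were (log2 differences 0.96 and 0.95).

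Slc39a3 and Slc39a5 were highest on day 7. Slc39a3, an importer of the cell surface, had -2.31, -1.60 and -0.52. Its day 7 value was 3.46-fold above day 0, a log2 difference that fell to 0.27 with normexp as planned, and 2.12-fold above day 5. Slc39a5, an importer of the basolateral surface of gut and pancreas cells, was dim, with -6.44, -5.74 and -4.45, and was 3.98-fold and 2.46-fold higher on day 7 than on days 0 and 5. These values lay little above the background, and with the refitted normexp correction they were 0.64 and 0.63 on the log2 scale, under 2-fold.

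The other 7 measured importers differed less than 2-fold in every comparison. Slc39a7, which releases zinc from the endoplasmic reticulum, had 4.49, 4.91 and 5.02. Slc39a1, a widely expressed importer of the cell surface, had 2.36, 2.97 and 2.99. Slc39a6 and Slc39a10, related importers that work together at the cell surface, had 1.13, 1.09 and 1.45, and 1.99, 1.77 and 1.73. Slc39a2, Slc39a9 and Slc39a11 also stayed within 2-fold, at -3.83, -3.33 and -4.16, at -1.27, -0.88 and -0.84, and at 0.69, 0.93 and 0.41. The second probe of Slc39a9 had the other sign, 2.26-fold and 4.07-fold lower on days 5 and 7 than on day 0, so that the direction for this gene depends on the probe.

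Among the zinc exporters, 1 of 8 measured members was higher on day 5 than on day 0 (12.5%, against 16.4% of all genes). Lower on day 5 were 2 (25%, against 16.1%). On day 7, 2 were higher than on day 0 and 2 lower (25% each, against 16.2% and 19.1%). Against day 5, 1 was higher (12.5%, against 5.97%) and 0 lower (against 8.38%). The group's median difference was 0.45, 0.20 and 0.14. Slc30a2, which loads zinc into vesicles and is known from the mammary gland, had 0.27 on day 0, -3.37 on day 5 and -2.29 on day 7 (chr4:133910214-133910273). Day 0 was the highest, with day 5 12.5-fold and day 7 5.90-fold below it. Day 7 lay 2.12-fold above day 5, a log2 difference that was 0.91 with the refitted normexp correction.

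Slc30a4, which fills vesicles with zinc and whose loss makes the milk of mice zinc-deficient, went the opposite way to Slc30a2. Its signal was -2.05, -0.49 and 0.23 (chr2:122507275-122507334). It was 2.95-fold higher on day 5 and 4.86-fold higher on day 7 than on day 0. With normexp as planned both calls were lost (log2 differences 0.18 and 0.86). Slc30a7, an exporter into the Golgi apparatus, had -1.67, -0.80 and -0.66 and was 2.01-fold higher on day 7 than on day 0, at the limit and under it with quantile normalisation (0.97), the median over probes (0.38) or the refitted normexp correction (0.93). Slc30a10, which exports manganese, had -4.70 on day 0 and was no longer well above background later, so that it was at least 4.19-fold lower on day 5 and at least 5.07-fold lower on day 7. Its other probe was not well above background on any array, and with the median over probes the call was lost, while the refitted normexp correction gave bounds of -1.16 and -1.31.

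Slc30a1, the zinc exporter of the cell surface whose promoter is shown above, had 0.60 on day 0, 1.58 on day 5 and 0.91 on day 7 (chr1:193733593-193733652). It was 1.98-fold higher on day 5 than on day 0, just under the limit, and its second probe was 2.99-fold higher. Quantile normalisation (1.00), the authors' value table (1.02) and the median over probes (1.28) placed it at 2-fold or above. Its highest array was day 5, the array on which Mt1 and Mt2 were lowest. The remaining measured exporters differed less than 2-fold. Slc30a5 and Slc30a6, which pair in the early secretory pathway, had 1.51, 1.22 and 1.40, and -0.63, -0.39 and -0.54. Slc30a9, a zinc transporter of mitochondria, had -0.05, 0.40 and 0.14, although 1 dimmer probe of it was 6.63-fold and 3.96-fold higher on days 5 and 7 than on day 0. Slc30a3, of synaptic vesicles, and Slc30a8, of insulin granules, were not well above background on any array, nor was the importer Slc39a12.

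**Figure D3:**
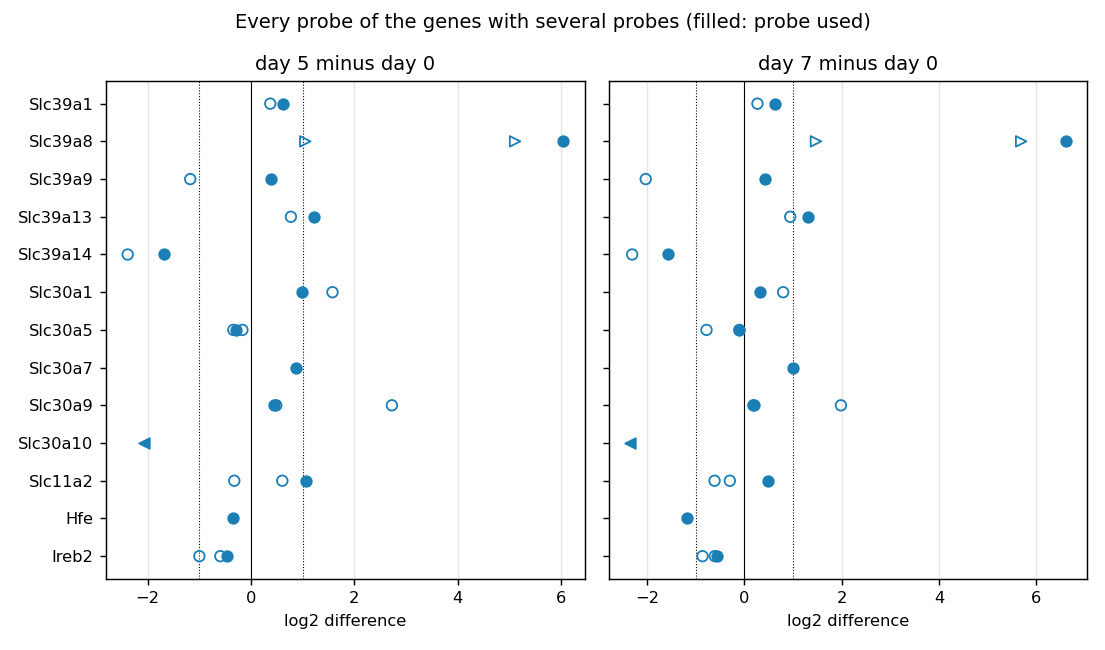
Log2 differences (horizontal axes) given by each probe of the 13 members with several probes, day 5 minus day 0 and day 7 minus day 0. Filled symbols are the probe used for the gene, open symbols its other probes, triangles lower bounds and dotted lines 2-fold, and probes well above background on neither array are not drawn. Slc39a8, Slc39a14 and Slc30a1 keep their side of 0 for every probe drawn, and Slc39a9 does not.

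Of the 10 members with a difference or a bound from at least 2 probes, the probes had the same sign for 8 in each comparison with day 0 and for 6 in day 7 against day 5, where the differences were small.

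Among the iron genes, 2 of 9 were higher on day 5 than on day 0 and 1 was lower (22.2% and 11.1%, against 16.4% and 16.1% of all genes). On day 7, 1 was higher than on day 0 and 4 were lower (11.1% and 44.4%, against 16.2% and 19.1%). Between days 5 and 7, 1 was higher and 1 lower (11.1% each, against 5.97% and 8.38%). The group's median difference was -0.18, -0.58 and -0.33. The exporter ferroportin was higher on both later days, and the transferrin receptor was lower.

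Slc40a1 (ferroportin), the exporter through which cells release iron, had -0.53 on day 0, 3.29 on day 5 and 4.29 on day 7 (chr1:45965255-45965314). It was 14.1-fold higher on day 5 and 28.2-fold higher on day 7 than on day 0. Day 7 was 2.00-fold above day 5, at the limit, and 0.85 on the log2 scale with normexp as planned. Slc40a1 has 1 probe on the array.

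Tfrc, the receptor that takes up transferrin-bound iron, is printed as 10 spots per array (chr16:32632255-32632314). Over these spots its mean signal ± SD was 0.63 ± 0.057, -0.60 ± 0.049 and -1.25 ± 0.059 on days 0, 5 and 7 (n = 10 technical spots, 1 array per day). The spots ran from 0.52 to 0.73 on day 0, from -0.69 to -0.53 on day 5 and from -1.33 to -1.15 on day 7, so the spots did not overlap. This is a technical spread that leaves out the spread between cultures. How many of the 149 probes printed as 10 spots also do not overlap was not counted. Tfrc was 2.34-fold lower on day 5 and 3.68-fold lower on day 7 than on day 0, the first of which was -0.98 on the log2 scale with normexp as planned. Slc11a2 (DMT1), which carries iron out of endosomes into the cytosol, had -1.01, 0.06 and -0.53 and was 2.10-fold higher on day 5 than on day 0. Its 3 probes ranged from -0.32 to 1.07 for that difference, and the call was lost with the array median (0.96) or the median over probes (0.61).

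The genes of iron sensing by the liver were dim. Tfr2, a second transferrin receptor that senses iron in hepatocytes, had -3.48, -3.19 and -5.63. It was 4.44-fold lower on day 7 than on day 0 and 5.40-fold lower than on day 5, and with the refitted normexp correction the log2 differences were -1.35 and -1.45. Hfe, the haemochromatosis protein that works with Tfr2, had -2.58, -2.93 and -3.76 and was 2.26-fold lower on day 7 than on day 0, which fell under 2-fold with the median over probes (-0.86). Hamp (hepcidin) was well above background only on day 0, at -5.80, and was at least 2.36-fold lower on day 7. On day 5 its bound was -0.96, under the limit, and -1.08 with the array median. The day 7 bound was -0.72 with the refitted normexp correction. None of the 3 was higher on the day 7 array than on day 0.

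The ferritin subunits store iron and were bright on every array. Fth1, the heavy chain, had 7.40, 7.39 and 7.38. Its differences were -0.02, -0.02 and -0.01, and 0.28, 0.37 and 0.09 with quantile normalisation, so its sign depends on the scaling and its size stayed well under 2-fold. Ftl1, the light chain, had 6.93, 6.11 and 6.33 and was 1.77-fold lower on day 5 and 1.52-fold lower on day 7 than on day 0. Ireb2 (IRP2), an iron-sensing protein that binds ferritin and Tfrc mRNA, had 3.10, 2.63 and 2.55. Both ferritin genes have near-identical processed copies in the genome and Hamp has the related copy Hamp2, and signal from such copies cannot be separated here.

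The metallothioneins differed by less than 2-fold from day 0 on both later days, and 1 of 3, Mt1, was higher on day 7 than on day 5. Of all genes, 5.97% were higher between these 2 arrays, and a group of 3 gives only a coarse share. The group's median difference was -0.62, 0.03 and 0.65. The Mt1 probe lies in the gene's mRNA (chr8:96704011-96704070, mm9) and is shown because it is printed as 10 spots and so gives the best-measured values of the group.
Mt1 probe: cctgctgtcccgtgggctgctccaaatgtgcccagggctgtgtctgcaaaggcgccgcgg
Over its spots the mean signal ± SD was 3.28 ± 0.079, 2.56 ± 0.047 and 3.79 ± 0.058 on days 0, 5 and 7 (n = 10 technical spots, 1 array per day). Its spots ran from 3.16 to 3.39, from 2.47 to 2.63 and from 3.72 to 3.90, with no overlap between arrays, under the same limits as for Tfrc. Mt1 was 1.65-fold lower on day 5 and 1.42-fold higher on day 7 than on day 0, and 2.35-fold higher on day 7 than on day 5. Mt2, its neighbour on chromosome 8, had 5.41, 4.80 and 5.45 and was likewise lowest on day 5, with day 7 1.57-fold above it. Mt3, the metallothionein known from brain, had -0.999, -1.18 and -1.01. Day 5 was the lowest array for each of the 3 genes under every scaling tried, but not for Mt2 with normexp as planned, which put day 5 above day 0 by 0.10.

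**Figure D4:**
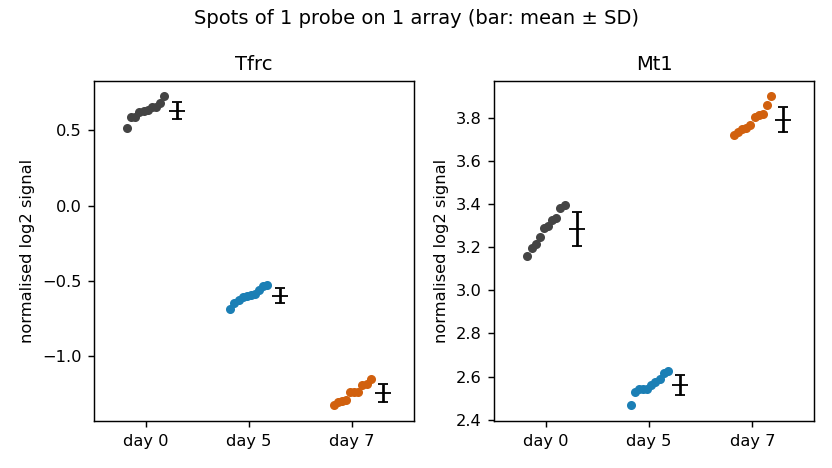
Normalised log2 signal (vertical axes, each panel with its own range) of the 10 spots of the Tfrc probe and of the Mt1 probe on the arrays of days 0, 5 and 7, spots sorted within an array. Bars are the mean ± SD of the spots of 1 array, a technical spread only. The spots of different days do not overlap for either gene. How many other probes printed as 10 spots also do not overlap was not counted. Mt1 is lowest on day 5 where Tfrc lies between its other arrays.

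Other genes of metal handling were taken as 6 lists. Their counts stand beside shares over all genes of 16.4% higher and 16.1% lower on day 5 than on day 0. For day 7 against day 0 these shares were 16.2% and 19.1%. Of 19 measured genes of iron uptake, transport and storage outside the members, 4 were higher and 6 lower on day 5 than on day 0, and 4 were higher and 4 lower on day 7. Heph (hephaestin), the ferroxidase that acts with ferroportin, had -6.06, 0.22 and -1.79, which is 77.7-fold above day 0 on day 5 and 19.3-fold above it on day 7 (4.48 and 2.14 as log2 differences when its probes' median is taken). Cybrd1, which reduces iron at the gut surface before DMT1 takes it up, had -5.51, -4.34 and -1.28 and was 18.8-fold higher on day 7 than on day 0, or a log2 difference of 2.88 after the refitted normexp correction. Trf (transferrin), the ligand of Tfrc and a product of hepatocytes, had -1.82, -4.36 and -4.33 and was 5.81-fold and 5.70-fold lower than on day 0. Hp was well above background only on day 0, and was at least 10.8-fold lower on day 5 and at least 13.0-fold lower on day 7. These bounds were -1.90 and -1.93 as log2 differences with the refitted normexp correction. Flvcr2 had -1.61, -4.44 and -0.81, 7.11-fold lower on day 5 and within 2-fold of day 0 on day 7. Slc11a1, the relative of DMT1 known from macrophages, had 0.48, -5.04 and -6.59. It was 45.9-fold lower on day 5 and 134-fold lower on day 7 than on day 0, while DMT1 itself stayed near or under 2-fold. These log2 differences shrank to -4.51 and -5.05 with the refitted normexp correction, and that of day 7 to -2.79 with normexp as planned. Ltf (lactoferrin) and Hpx (hemopexin, which binds haem in serum) were dim on day 0, at -5.68 and -5.13, and 8.26-fold and 4.29-fold higher on day 7, or log2 differences of 1.63 and 1.14 after the same correction.

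Of 15 other regulators of iron balance, 4 were higher and 2 lower on day 5 than on day 0, and 6 were higher and 2 lower on day 7. Bmp2, a ligand that drives hepcidin expression, was higher by at least 103-fold on day 5 and by at least 90.5-fold on day 7. These bounds were 4.33 and 4.16 as log2 differences with the refitted normexp correction, and 0.88 and 0.74, under 2-fold, with normexp as planned. Bmp6, the other such ligand, had -5.65, -6.16 and -2.99 and was 6.32-fold higher on day 7 than on day 0, or a log2 difference of 1.35 after the refitted correction. Hjv (hemojuvelin), their co-receptor, was at least 4.03-fold and at least 5.41-fold lower, which on day 5 came to a log2 bound of -0.98 with the refitted normexp correction. Tmprss6, the protease that cuts hemojuvelin, had -2.43, -2.38 and -3.91 and was 2.79-fold lower on day 7 than on day 0. Aco1 (IRP1), the partner of Ireb2, had 2.69, 3.29 and 3.00, within 2-fold.

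Of 8 measured genes of zinc sensing and binding, 2 were higher and 0 lower on day 5 than on day 0, and 1 was higher and 1 lower on day 7. Mtf1, the zinc sensor itself, had -0.47, -0.77 and -1.36, within 2-fold of day 0 on both days. Tmem163, a zinc transporter of vesicles, had -3.79, -1.28 and 0.54. It was 20.0-fold higher on day 7 than on day 0 (log2 difference 2.90 with its probes' median), and its 5.67-fold difference on day 5 fell to a log2 difference of 0.83 with its probes' median. Haem synthesis and breakdown had 1 of 18 genes higher and 2 lower on both days, among them Blvra, which reduces biliverdin (16.1-fold lower on day 5, 10.2-fold on day 7, and log2 differences of -2.42 and -2.03 with its probes' median). Iron-sulfur cluster assembly had 1 of 19 higher and 4 lower on both days, and copper and manganese handling 0 of 13 higher and 2 lower. Over the 92 measured genes of the 6 lists, 12 were higher and 16 lower on day 5, and 13 and 15 on day 7.

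**Figure D5:**
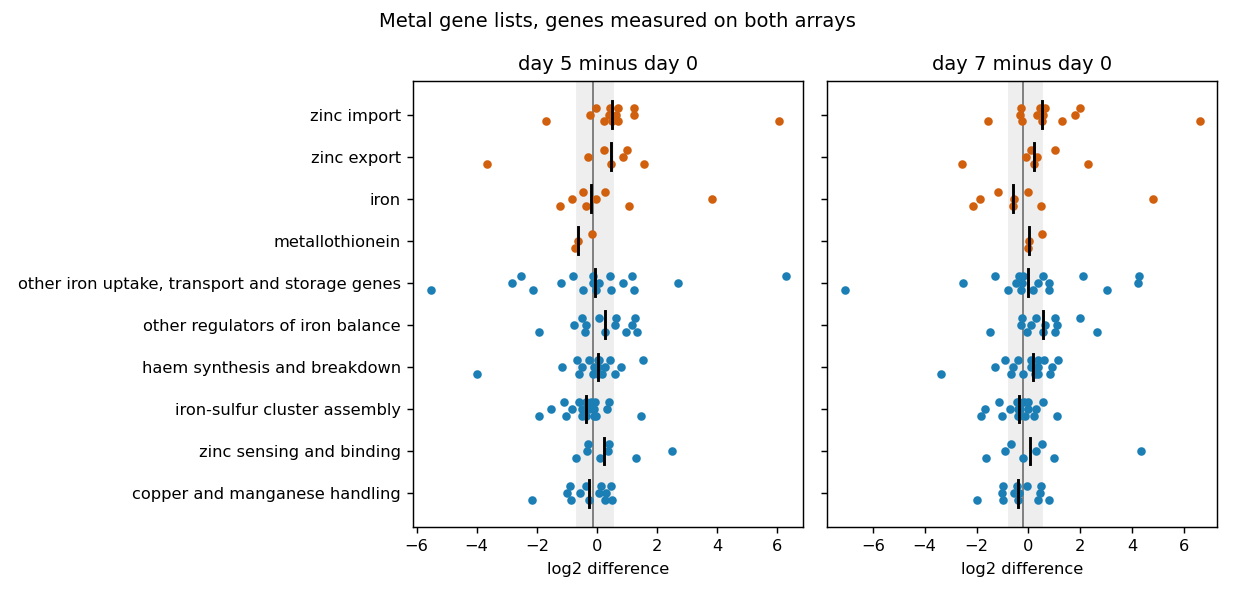
Log2 differences (horizontal axes) of genes measured on both arrays, day 5 minus day 0 and day 7 minus day 0, for the 4 member groups (orange) and 6 lists of other metal genes (blue), 1 point per gene. Black bars are list medians, and the grey line and band are the median and the interquartile range of all genes measured on both arrays. Single genes such as Slc39a8, Slc40a1, Heph and Slc11a1 lie far outside the band, while the list medians lie inside or near it.

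Cell markers moved with the days as well. The marker counts stand beside shares over all genes of 16.4% higher and 16.1% lower on day 5 than on day 0. For day 7 against day 0 the shares were 16.2% and 19.1%. Pou5f1 and Nanog were 5.19-fold and 6.21-fold lower on day 5 than on day 0. On that day the endoderm factors Foxa2 and Sox17 were 364-fold and 179-fold higher (log2 differences 7.71 and 7.08 with the refitted normexp correction). All of 10 ES cell genes were lower and all of 10 definitive endoderm genes higher on day 5. On day 7, 9 of 10 ES cell genes were lower than on day 0 and 10 of 10 definitive endoderm genes higher. Against day 5, day 7 had 2 ES cell genes higher and 5 lower. Of the definitive endoderm genes, 0 were higher and 7 lower between these arrays, where the shares over all genes were 5.97% and 8.38%. Early liver genes lay above day 0 on day 7 for 7 of 9 measured, and 1, Ahsg, was 25.3-fold lower. Afp was 875-fold, Ttr at least 211-fold and the factor Hnf4a 23.1-fold higher (log2 difference 1.62 with the median of the Hnf4a probes). The log2 difference of Afp was 7.97 with the refitted normexp correction and 4.50 with normexp as planned. For Ttr these bounds were 5.30 and 1.55. Apoh was not well above background on any array, and Alb (albumin), a defining hepatocyte gene, did not stand well above background on the day 0 and day 7 arrays. The early liver markers had a summed signal of 1.34, 10.9 and 33.0 on days 0, 5 and 7, in units of the array's 75th percentile. Bright genes weigh most in such sums. The ES cell genes summed to 274, 11.4 and 37.3, and the definitive endoderm genes to 1.55, 259 and 59.4. Of 12 markers of extraembryonic endoderm, 8 were higher and 2 lower on day 5 than on day 0, and 10 were higher and 1 lower on day 7. They summed to 26.2, 73.3 and 228. Of 10 mesenchyme markers, 3 were higher and 2 lower on day 5, and 9 were higher and 1 lower on day 7, with sums of 3.09, 3.19 and 22.7. Of 10 cardiac mesoderm markers, 4 were higher and 2 lower, then 7 higher and 0 lower, with sums of 6.96, 30.6 and 18.3. Of 6 measured intestine markers, 2 were higher and 1 lower, then 5 higher and 0 lower, with sums of 0.733, 3.43 and 10.8. Cdh17 and Muc2 of that list were not well above background on any array. The part of these cell types in the member differences was not tested. Macrophages and red cell precursors also carry much ferroportin or transferrin receptor. The macrophage and blood markers summed to 2.19, 0.403 and 0.475, with Ptprc, Adgre1, Cd163 and Spi1 not well above background on any array. Of 7 measured ones, 0 were higher and 1, Cd68 (9.25-fold), was lower on day 5 than on day 0. On day 7, 3 were higher, Csf1r (3.17-fold), Cd14 (2.03-fold) and Lyz2 (at least 6.55-fold), and Cd68 was 10.7-fold lower. The erythroid markers summed to 0.994, 1.19 and 1.14, with Rhag and Hba-x not well above background on any array. Of 8 measured ones, 1, Gata1 (7.08-fold), was higher and 1, Tal1 (10.6-fold), was lower on day 5 than on day 0. These shares, 12.5% each, lie below those over all genes. On day 7, 1, Hbb-bh1 (2.28-fold), was higher (12.5%) and 4 were lower (50%). The part of these cells in the Slc40a1 and Tfrc differences was not tested.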

How the data were processed

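Total RNA was measured on 3 one-colour (Cy3) arrays, 1 per day, grouped by the cell type in the labels. Per the file headers, the authors extracted the scans with Agilent Feature Extraction 10.5.1.1, and probe positions are those of mm9. The deposited scanner files hold linear intensity, and the background-corrected processed intensity was used. The authors' deposited value table holds log2 values of 41252 rows (median 7.17 in each of the 3 columns, equal in distribution, uncentred per gene, r with the scanner log2 values of 0.9998 to 1.0000 across probes); its scaling step is unknown, and it served as an alternative.

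The log2 intensities were set relative to the 75th percentile of each array's gene spots (1564, 2051 and 2053 units on days 0, 5 and 7). Control spots and 149, 104 and 131 spots marked as outliers were left out, no gene spot was saturated, and spots of 1 probe were averaged. A probe was well above background when more than 50% of its spots were so marked. Each gene took the probe well above background on most arrays, then the brightest. Of 41174 probes, 24802 were named by RefSeq accession, 6034 by symbol, 53 by a member's name in the files, and 10285 kept the name in the files. All 36 members are named. For each other metal list and comparison, the rule took up to 4 genes with the largest and up to 4 with the smallest difference. These were taken among genes at least 2-fold apart. Of marker lists it took 10 preset genes. The text does not describe every gene so taken. Among those left out are Steap1, Epas1, Exoc6, Neo1, Erfe, Ppox, Hmox1, Alas2, Nubp2, Nfu1, Sod2 and some preset markers. The genes described are therefore a selection. Aco1, Mtf1 and the markers named beyond those 10 lie outside this rule and were picked with their values seen. The value of 1 marker gene is not reported here. The members and lists were chosen with earlier results of these data known. Calling was tested on simulated data with known differences. That simulation held spot noise only. It changed only genes that were well above background on all arrays and not dim on average, and only by well over 2-fold. It therefore did not cover the spread between cultures, dim genes, true differences near the 2-fold limit or differences given as bounds. Alternatives were the array median, quantile normalisation, the value table, normexp (limma 3.58.1 in R 4.3.3, offset 50), the median over probes, no dim filter, only probes well above background on all arrays, outliers kept, and limits of 1.5-fold and 3-fold. A refitted normexp and the list without Tfr2 were added after the data were seen. The number of arrays limits the precision.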

Additional observations from a re-analysis of the deposited data

How the results depend on the processing

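The counts of members at least 2-fold apart moved by over 1.5 times under these settings. With normexp as planned, 8 members were lower on day 5 than on day 0, beside 9566 of all 21653 genes. With the same setting 0 members were lower on day 7 than on day 5, beside 441 of all genes. That fit rested on 7, 36 and 6 spots dimmer than their local background on days 0, 5 and 7, and put the median difference of all genes at -0.63 for day 5 and -0.58 for day 7 against day 0. Refitted without those spots, normexp left 3 members higher on day 7 than on day 5, beside 930 of all 21653 genes. For day 7 against day 5, the median over probes and no filter on dim probes each gave 2 lower members, and leaving out Tfr2 gave 0. Over all genes these settings gave 1789 of 21653, 2667 of 28578 and 1815 of 21653 lower. A 1.5-fold limit gave 11 higher and 8 lower on day 5 against day 0, and 7 lower on day 7 against day 5. Of all 21653 genes, 5202, 5985 and 3502 were so called. A 3-fold limit gave 2 higher on day 5 against day 0, 4 lower on day 7 against day 0 and 0 higher on day 7 against day 5. The counts over all 21653 genes were 2135, 2162 and 709.

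Differences of at least 2-fold changed sign with normexp as planned and with no other setting. Those values for day 5 against day 0 were -2.65 (Cybrd1), -1.89 (Ltf), -2.50 (Hpx), -0.60 (Tmem163) and -0.11 (Hnf4a). For day 7 against day 0 they were -1.35 (Slc39a5), -0.33 (Heph), -0.033 (Cybrd1), -0.89 (Ltf), -1.06 (Hpx) and -1.03 (Bmp6), and for day 7 against day 5 they were 0.40 (Tfr2), 1.41 (Slc11a1) and 0.11 (Tmprss6).

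Of 30 member differences of at least 2-fold, 13 stayed so under all 9 alternatives for values, and 20 with the planned normexp set aside. Of 67 others, 54 and 64 stayed under 2-fold. No paired analysis was possible because each day has 1 array.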
